A study of Mus musculus with 6 samples.

Results

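Transcripts of 36 genes of the hepatic acute phase response and of interleukin-6 (IL-6) signalling were followed in whole liver from mice fed a high-fat high-cholesterol diet for 12 weeks. The genes are listed positive and negative acute phase genes, IL-6 signalling genes and metallothioneins, chosen by name and not by a measured difference. They make up 36 of the 17119 gene symbols in the count table. The study compared 3 libraries from wild-type mice (Clec4f-iCre with Cebpb+/+) with 3 from littermates with 1 floxed Cebpb allele (Clec4f-iCre with Cebpbfl/+, called heterozygous here). All 6 therefore carried the Cre recombinase driven by Clec4f, a Kupffer cell gene, so that Cebpb, which encodes the transcription factor C/EBPβ, was to be lost from 1 allele in Kupffer cells (the macrophages resident in liver) and not in hepatocytes. The labels give no age, sex or batch and do not tie each library to an animal of its own, so the p-values measure the spread between these libraries.

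The acute phase response is the change in the proteins that hepatocytes secrete into the blood during inflammation. IL-6, released largely by macrophages, binds its receptor together with the shared subunit gp130, which activates the transcription factor STAT3, while IL-1 and tumour necrosis factor act through NF-κB. C/EBP factors bind many of the promoters concerned, glucocorticoids strengthen the response, and SOCS3 ends the signal. Output of positive acute phase proteins such as serum amyloid A then goes up, and output of negative ones such as albumin and transthyretin goes down.

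All 36 genes had enough counts to be tested. None passed the threshold of 0.05 on the adjusted p of edgeR's quasi-likelihood test in either direction, where 71 of 12706 tested genes (0.559%) were lower in the heterozygous livers and 3 (0.0236%) were higher. Adjusted p-values of the 36 genes ran from 0.290 to 0.995. Adjusted p-values here are edgeR's over all tested genes unless another tool is named. At an unadjusted p under 0.05, 5 of the 36 differed (13.9%), all 5 with a negative fold change, beside 13.2% of all tested genes in either direction. Signs leaned one way all the same: 32 of 36 log2 fold changes were negative, with a median of -0.70 beside 0.0048 over all tested genes. The spread inside each genotype was wide. The median SD of log2 CPM (library-scaled counts per 1e+06) within groups was 0.66 for the 36 genes and 0.21 for all tested genes, and 23 of the 36 lay in the tenth of genes with the widest spread.

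**Figure D1:**
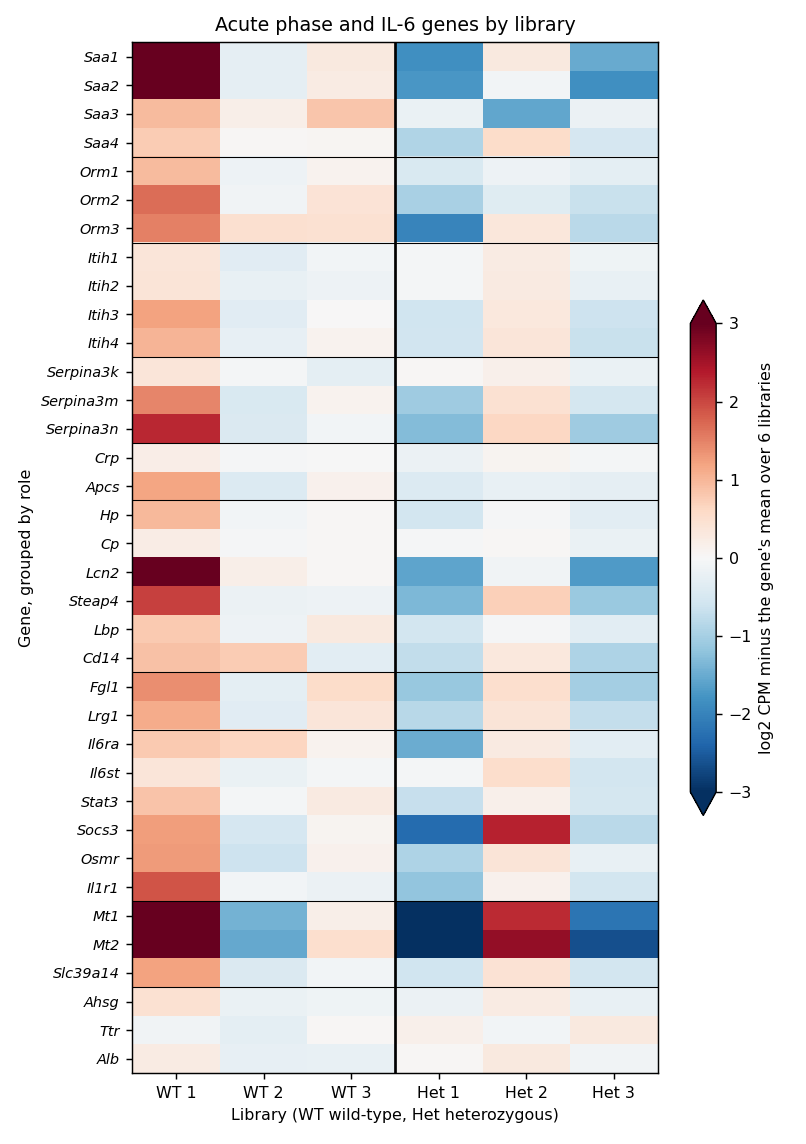
Log2 CPM of each of the 36 genes in each library, centred on the gene's mean over the 6 libraries, with genes in rows ordered by role and libraries in columns; the colour scale is in log2 units and saturates at 3 on either side. Wild-type replicate 1 stands at the high end of nearly all rows, heterozygous replicate 2 is the highest of its group in 34 of 36, and heterozygous replicate 1 is the lowest library in 22.

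The pattern that most of these genes shared was an order of libraries rather than of genotypes. Wild-type replicate 1 was the highest of all 6 libraries for 32 of the 36 genes (88.9%), compared with 20.8% of all tested genes. Among the heterozygous livers, replicate 2 was the highest for 34 of 36 (94.4%), compared with 36.2% of all. Wild-type replicate 1 and heterozygous replicate 2 were each the highest of their own group for 34 genes, all but Saa3 and Ttr, against 17.6% of all tested genes. The commonest full order among the 36 genes was wild-type 1, heterozygous 2, wild-type 3, wild-type 2, heterozygous 3, heterozygous 1. It occurred in 9 of the 36 genes and in 58 of 12706 tested genes (0.456%). This order was picked from the values of the 36 genes themselves, so its higher share among them is no test. The 33 genes other than Ahsg, Ttr and Alb took 5.06% of all counts in wild-type replicate 1 and 2.56% and 2.70% in the other wild-type libraries. They took 3.06% in heterozygous replicate 2, and 2.18% and 2.15% in heterozygous replicates 1 and 3. Library totals differed little, from 16895322 to 17750755 counts.

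The promoters of Saa1, Saa2, Saa3, Lcn2, Mt1 and Mt2 are shown, since the response is controlled largely at promoters and since paralogues can be compared: Saa1 and Saa2 with Saa3, and Mt1 with Mt2. Each runs 5′ to 3′ over the 250 bases before the RefSeq start in build GRCm38.p6. Capitals mark matches to TTGCNNAA, a C/EBP motif, and in Mt1 and Mt2 also to TGCGCNC and TGCACNC, the cores of metal response elements. Both strands were searched for these, for the STAT motif TTCNNNGAA and for an NF-κB motif, and no 2 capitalised matches overlap.
Saa1 (chr7:46742981-46743230, minus strand): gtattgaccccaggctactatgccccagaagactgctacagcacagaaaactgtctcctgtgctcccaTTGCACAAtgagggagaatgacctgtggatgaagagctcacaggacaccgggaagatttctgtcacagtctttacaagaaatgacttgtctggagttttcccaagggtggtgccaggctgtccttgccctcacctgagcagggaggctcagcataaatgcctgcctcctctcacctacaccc
Saa2 (chr7:46751583-46751832, plus strand): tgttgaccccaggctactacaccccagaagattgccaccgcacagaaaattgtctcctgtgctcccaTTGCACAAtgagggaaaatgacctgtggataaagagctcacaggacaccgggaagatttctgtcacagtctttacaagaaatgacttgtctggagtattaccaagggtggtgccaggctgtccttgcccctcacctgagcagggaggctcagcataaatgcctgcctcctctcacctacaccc
Saa3 (chr7:46715677-46715926, minus strand): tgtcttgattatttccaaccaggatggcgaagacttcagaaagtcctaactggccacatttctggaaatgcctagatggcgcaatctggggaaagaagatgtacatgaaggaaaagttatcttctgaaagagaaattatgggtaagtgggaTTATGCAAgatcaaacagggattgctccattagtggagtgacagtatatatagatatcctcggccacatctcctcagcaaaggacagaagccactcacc
Lcn2 (chr2:32387740-32387989, minus strand): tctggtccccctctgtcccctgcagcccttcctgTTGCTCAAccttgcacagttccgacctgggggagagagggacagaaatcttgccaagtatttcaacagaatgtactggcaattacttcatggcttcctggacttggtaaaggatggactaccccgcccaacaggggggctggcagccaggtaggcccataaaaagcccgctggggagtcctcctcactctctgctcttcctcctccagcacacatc
Mt1 (chr8:94178839-94179088, plus strand): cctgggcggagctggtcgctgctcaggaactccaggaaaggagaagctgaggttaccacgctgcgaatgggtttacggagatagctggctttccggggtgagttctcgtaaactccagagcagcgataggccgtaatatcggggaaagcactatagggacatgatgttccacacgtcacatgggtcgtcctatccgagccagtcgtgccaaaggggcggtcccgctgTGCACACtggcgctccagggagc
Mt2 (chr8:94172368-94172617, plus strand): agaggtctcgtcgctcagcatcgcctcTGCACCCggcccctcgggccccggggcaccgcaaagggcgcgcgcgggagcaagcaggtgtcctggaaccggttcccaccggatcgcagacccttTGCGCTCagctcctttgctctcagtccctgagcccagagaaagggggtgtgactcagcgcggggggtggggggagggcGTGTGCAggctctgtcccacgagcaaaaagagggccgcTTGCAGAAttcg

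The Saa1 and Saa2 promoters were identical at 94.8% of aligned positions and hold the same TTGCACAA, at -182 to -175 and -183 to -176 from the start. Saa3 shared 52.5% of positions with Saa1 and has its C/EBP match elsewhere, at -99 to -92 on the opposite strand. Lcn2 has TTGCTCAA at -216 to -209. The metallothionein windows shared 48.9% of positions. The Mt1 window held 1 metal response core and the Mt2 window held 3, with a C/EBP match in Mt2 at -12 to -5. These values depend on the start that RefSeq gives, and cores beyond the 250 bases were not searched. Of the 36 genes, 27 matched a RefSeq promoter by symbol. The C/EBP motif was found in 14 of these 27 (51.9%), against 9.50% of the 10192 tested genes with a promoter of that length. Each gene was counted once over all its promoters, here and below. The STAT motif was in 4 of 27 (14.8%), namely Apcs, Itih4, Socs3 and Steap4, against 7.41% of those tested genes. The metal response core was in 4 (Ahsg, Mt1, Mt2 and Orm3) against 33.7%, and the NF-κB motif in 0 against 0.451%. The C/EBP motif was also in 9 of 21 further positive acute phase genes, 3 of 7 hepatocyte markers and 3 of 11 further negative acute phase genes. A match to letters is a description of the window and not a binding site.

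Serum amyloid A proteins are carried on high-density lipoprotein and are among the most strongly induced acute phase products. Saa1, one of the liver forms, had 2428, 253 and 373 CPM in the wild-type livers, replicates 1 to 3 in order here and throughout, and 84.4, 371 and 107 CPM in the heterozygous livers. One library, wild-type replicate 1, was far above the other 5, and the groups overlapped. The edgeR log2 fold change of heterozygous over wild-type was -2.44 ± 1.20 (SE, as for all log2 fold changes given with ±, n = 3 per group, adjusted p = 0.501). Saa2, the neighbouring near-copy, read 2225, 142 and 201 CPM in wild-type and 50.8, 161 and 47.5 CPM in heterozygous livers (-3.31 ± 1.41, adjusted p = 0.436). Again heterozygous replicate 2 exceeded a wild-type library. Without wild-type replicate 1 the values became -0.72 for Saa1 and -0.97 for Saa2. Saa1 counts were 1.09 times Saa2 counts in wild-type replicate 1 and 1.66 to 2.31 times in the other 5 libraries. Reads of Saa1 and Saa2, of the Orm, Serpina3 and metallothionein copies, may have been split or dropped in counting, so values of a single copy are less certain than those of the family.

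Saa3, a form made by macrophages and adipocytes as well as liver, behaved otherwise. It was at 75.9, 44.0 and 69.9 CPM in wild-type libraries and at 34.1, 13.3 and 34.6 CPM in heterozygous ones. Every heterozygous library was below every wild-type library, and replicate 2, high for almost every other gene of the set, was the lowest of all. The log2 fold change was -1.21 ± 0.41 (95% interval -2.22 to -0.19), with an unadjusted p of 0.027 and an adjusted p of 0.290, the smallest of the 36. DESeq2 gave nearly the same fold change, -1.20, with an adjusted p of 0.00988, so that Saa3 was the 1 gene of the set past its threshold, where 4.20% of all tested genes passed in either direction. Markers of macrophages were lower in the same group: 8 of 8 tested monocyte and recruited macrophage markers had negative fold changes, 2 of them past the edgeR threshold, with a summed level of 235, 390.5 and 286 CPM in wild-type and 89.4, 93.8 and 117 CPM in heterozygous livers. Within the wild-type group the order differed, since the sum was lowest in replicate 1, where Saa3 was highest. Within the heterozygous group the sum was highest in replicate 3, as was Saa3, but lowest in replicate 1, where Saa3 was not. The mean log2 CPM of these markers was 1.52, 1.27 and 1.86 in the heterozygous group, which is the order of Saa3. In the wild-type group it was 2.86, 2.97 and 2.90, the reverse of the order of Saa3. The part of macrophages in the Saa3 values was not tested, and in whole tissue fewer cells of a type and less RNA per cell cannot be told apart. Saa4, the constitutive liver form, was at 1107, 671 and 681 CPM in wild-type and at 350.0, 951 and 462 CPM in heterozygous livers, with the usual library order and overlapping groups (-0.48 ± 0.42, adjusted p of 0.734).

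**Figure D2:**
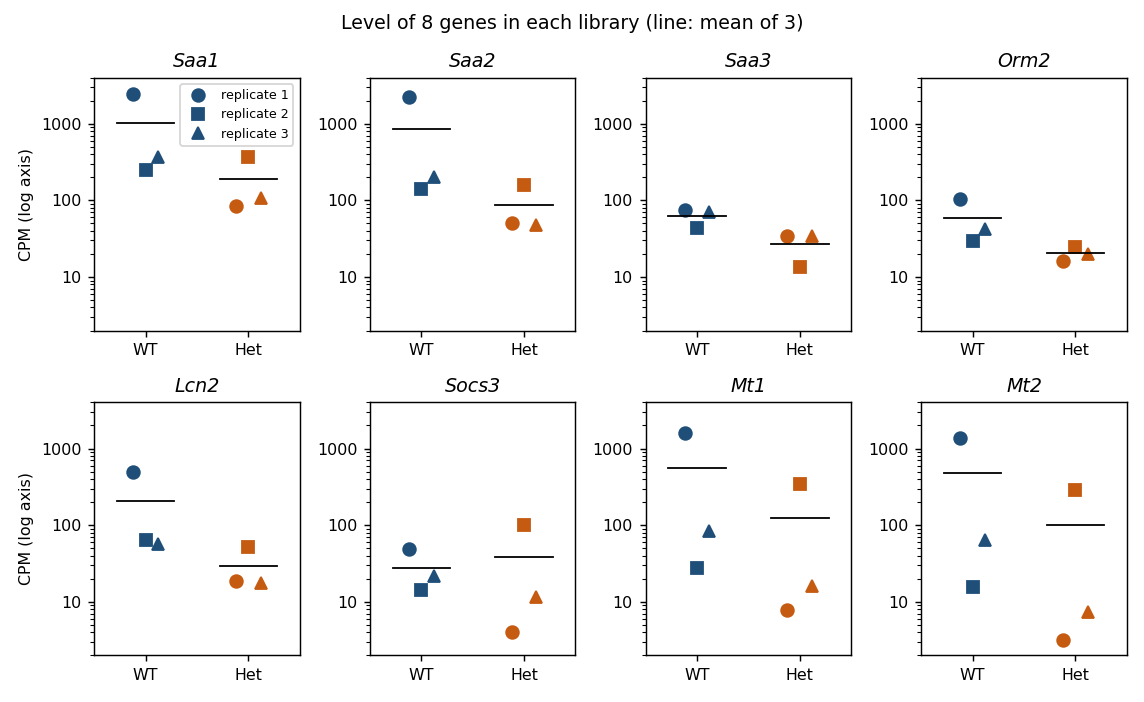
TMM-scaled CPM on a log axis for 8 genes of the set; each point is 1 library (wild-type blue, heterozygous orange, the marker shape giving the replicate) and each line is the mean of a group of 3. For Saa1, Lcn2, Mt1 and Mt2 wild-type replicate 1 stands alone at the top, whereas for Saa3 the 3 heterozygous points lie below all wild-type points and replicate 2 is the lowest.

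The orosomucoids, or alpha-1-acid glycoproteins, bind drugs and dampen immune reactions. All 3 had heterozygous values below every wild-type value. Orm1 was at 1367, 638 and 763 CPM in wild-type and at 514, 637 and 574 CPM in heterozygous livers (-0.68 ± 0.28, adjusted p = 0.354). Its gap between wild-type replicate 2 and heterozygous replicate 2 was so small that it closed under RLE scaling, under DESeq2's size factors and without the filter on low counts, and also when wild-type replicate 1 or heterozygous replicate 1 was left out. Orm2 was at 102.8, 29.9 and 42.3 CPM against 16.3, 25.0 and 20.2 CPM (-1.51 ± 0.51, adjusted p = 0.299). Orm3 was at 51.8, 25.4 and 24.8 CPM against 4.66, 23.0 and 10.5 CPM (-1.42 ± 0.65, adjusted p = 0.469). In each the nearest pair across genotypes included heterozygous replicate 2. With Saa3 and Lcn2, these made 5 of 36 genes (13.9%) with every heterozygous library below every wild-type one, beside 11.3% of all tested genes. None of the 36 had the opposite arrangement, beside 7.05% of all.

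Inter-alpha-trypsin inhibitor heavy chains are hepatocyte proteins that stabilise hyaluronan in the extracellular matrix. The 4 genes split into a steady and a variable pair. Itih4 was at 4897, 2016 and 2589 CPM in wild-type and at 1629, 3074 and 1516 CPM in heterozygous livers (-0.61 ± 0.43, adjusted p = 0.645). Itih3 was at 2970.4, 1013 and 1289.6 CPM against 852, 1602 and 828 CPM (-0.68 ± 0.50, adjusted p = 0.669). In both, heterozygous replicate 2 ranked behind only wild-type replicate 1. Itih1 and Itih2 spanned 1.62-fold and 1.53-fold over all libraries, with log2 fold changes of 0.02 ± 0.19 and -0.01 ± 0.19.

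The serpin A3 genes encode relatives of the protease inhibitor alpha-1-antichymotrypsin. Serpina3n, the inducible member, was at 3794, 583 and 738 CPM in wild-type and at 317, 1219 and 376 CPM in heterozygous livers. Wild-type replicate 1 was 5.74 times the mean of the other wild-type libraries and heterozygous replicate 2 was 3.52 times the mean of its own group's others, so the groups overlapped (-1.42 on the log2 scale, with a 95% interval of -3.99 to 1.15 and adjusted p = 0.662). Serpina3k was at 12328, 9241 and 7792 CPM against 9781, 10546 and 8351 CPM, a span of 1.58-fold (-0.03 ± 0.19, adjusted p = 0.974). Serpina3m lay between them with a span of 5.69-fold (-0.83 ± 0.66).

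Of the pentraxins, which bind microbial surfaces and dead cells, Apcs encodes serum amyloid P, the main acute phase pentraxin of mice, and Crp encodes C-reactive protein, which responds little in mice. Apcs was at 131, 44.0 and 63.5 CPM in wild-type and at 43.5, 49.9 and 48.3 CPM in heterozygous livers (-0.75 ± 0.40, adjusted p = 0.525). Only wild-type replicate 1 stood apart. Crp was at 359, 303 and 313 CPM against 278, 331 and 298 CPM (-0.10 ± 0.12, adjusted p = 0.811), and its span of 1.29-fold over the 6 libraries was the narrowest of the 36 genes.

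Haptoglobin, from Hp, captures free haemoglobin. It was at 9665, 4672 and 5104 CPM in wild-type and at 3384, 4803 and 3969 CPM in heterozygous livers (-0.68 ± 0.29, unadjusted p = 0.0499, adjusted p = 0.379). Heterozygous replicate 2 lay just above wild-type replicate 2. Lcn2, whose product lipocalin-2 withholds iron from bacteria by binding their siderophores, was at 498, 63.2 and 57.2 CPM against 18.8, 52.3 and 17.4 CPM. The groups did not overlap, yet wild-type replicate 1 was 8.28 times the mean of the other wild-type libraries, and the log2 fold change of -2.81 had an SE of 1.15 (adjusted p = 0.417) and became -1.01 without that library. Lcn2 is also made by neutrophils, whose 5 tested markers summed to 26.5, 23.6 and 24.8 CPM in wild-type and to 7.69, 8.18 and 12.8 CPM in heterozygous livers, with the defining marker Ly6g at 0 or 1 count in each library and Ngp, Camp, Mpo and Retnlg under the filter. This sum, like Lcn2, was highest in wild-type replicate 1, by a small margin, and in the heterozygous group it was highest in replicate 3, where Lcn2 was lowest. Over all 10 listed markers the wild-type sums were 30.1, 25.7 and 33.0 CPM, highest in replicate 3. The part of neutrophils in the Lcn2 values was not tested. Steap4, an iron and copper reductase, spanned 10.5-fold (-1.25 ± 0.94). Cp, from which the copper carrier ceruloplasmin is made, spanned 1.34-fold (-0.15 ± 0.13).

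Lbp and Cd14 encode the proteins that pass bacterial lipopolysaccharide to its receptor. Lbp ran from 149 to 285 CPM in wild-type and from 114 to 163 CPM in heterozygous livers (-0.64 ± 0.24, unadjusted p = 0.031, adjusted p = 0.306). Cd14, a gene of macrophages as well as hepatocytes, ran from 7.39 to 17.0 CPM and from 4.82 to 11.3 CPM (-0.88 ± 0.43, adjusted p = 0.465). Lrg1, which encodes a secreted leucine-rich glycoprotein, was at 1795, 655 and 1063 CPM against 462, 1086 and 506 CPM (-0.77 ± 0.50, adjusted p = 0.618). Fgl1, a fibrinogen-like protein of hepatocytes, was at 793, 244 and 439 CPM against 137, 425 and 148 CPM (-1.05 ± 0.66, adjusted p = 0.615). Heterozygous replicate 2 lay inside the wild-type range for all 4 of these genes.

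**Figure D3:**
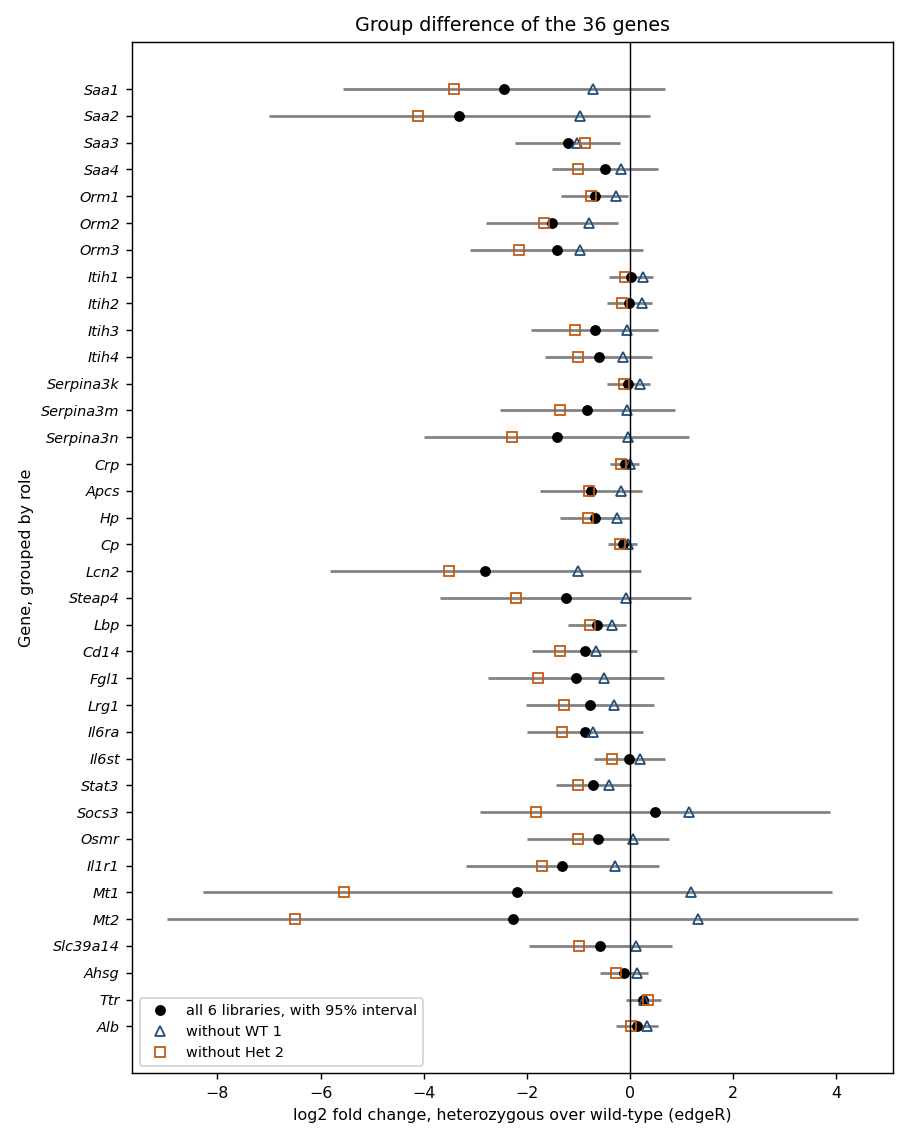
Log2 fold change of heterozygous over wild-type livers for each of the 36 genes (x axis) for each of the 36 genes (y axis, by role), from edgeR: black points with 95% intervals use all 6 libraries, triangles leave out wild-type replicate 1 and squares leave out heterozygous replicate 2. Most black points lie left of 0, only the intervals of Saa3, Orm1, Orm2, Hp and Lbp stay below it, and the Mt1 and Mt2 intervals are the widest.

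Among the signalling genes, the transducer Stat3 was at 290.2, 153 and 195 CPM in wild-type and at 99.9, 178 and 112 CPM in heterozygous livers (-0.71 ± 0.30, adjusted p = 0.383). Il1r1, the receptor of IL-1, was at 364, 92.9 and 86.7 CPM against 43.4, 108 and 66.9 CPM (-1.31 ± 0.73, adjusted p = 0.555). Both followed the library order of the acute phase products, with wild-type replicate 1 highest and heterozygous replicate 2 the highest of its group. Socs3, an early STAT3 target and the brake on gp130 signalling, was at 48.1, 14.2 and 21.4 CPM against 4.08, 101 and 11.5 CPM. Here heterozygous replicate 2 was the highest of the 6 libraries, 13.0 times the mean of the other heterozygous livers, and heterozygous replicate 1 was the lowest. The log2 fold change of 0.48 ± 1.29 (95% interval -2.91 to 3.87, adjusted p = 0.940) turned to -1.83 without heterozygous replicate 2.

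The receptor subunits differed in spread. Il6ra, the IL-6 binding subunit, was at 65.4, 59.8 and 41.3 CPM in wild-type and at 13.7, 46.4 and 30.6 CPM in heterozygous livers (-0.88 ± 0.45, adjusted p = 0.511). Il6st, which encodes gp130, was at 113, 76.0 and 83.5 CPM against 83.5, 127 and 59.4 CPM (-0.02 ± 0.29, adjusted p = 0.995). Il6ra spanned 4.78-fold and Il6st 2.13-fold, and heterozygous replicate 2 had the highest Il6st level of all libraries. Osmr, the oncostatin M receptor, spanned 4.61-fold (-0.63 ± 0.56). Of the ligands, Il6 had 0 to 5 counts per library and was under the filter, as were Osm, Lif, Il11 and Il22. The gp130 ligands Clcf1, at 2.39 to 4.21 CPM, and Ctf1, at 4.30 to 7.23 CPM, were tested and did not pass.

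The metallothioneins, small cysteine-rich proteins that bind zinc and copper and are induced by IL-6, glucocorticoids and metals, had the widest spans of the set. Mt1 was at 1577, 27.4 and 82.7 CPM in wild-type and at 7.92, 346 and 16.0 CPM in heterozygous livers. Mt2 was at 1358, 15.7 and 64.9 CPM against 3.20, 286 and 7.40 CPM. Wild-type replicate 1 was 28.7-fold (Mt1) and 33.7-fold (Mt2) above the mean of the other wild-type libraries, and heterozygous replicate 2 was 28.9-fold and 54.0-fold above the mean of the other heterozygous ones. Over the 6 libraries the spans were 199-fold and 424-fold, where the median tested gene spanned 1.52-fold. The 2 genes had 1 library order although their counts stood in ratios from 1.16 to 2.47. The group comparison was correspondingly imprecise, at -2.19 ± 2.28 for Mt1 (95% interval -8.29 to 3.91, adjusted p = 0.795) and -2.28 ± 2.50 for Mt2 (adjusted p = 0.806). Without wild-type replicate 1 the values became 1.18 and 1.31, and without heterozygous replicate 2 they became -5.55 and -6.49. Slc39a14, the zinc importer ZIP14 that is induced by IL-6 in hepatocytes, was at 556, 177 and 227 CPM against 159, 323 and 163 CPM, in the same upper order (-0.57 ± 0.55, adjusted p = 0.765).

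**Figure D4:**
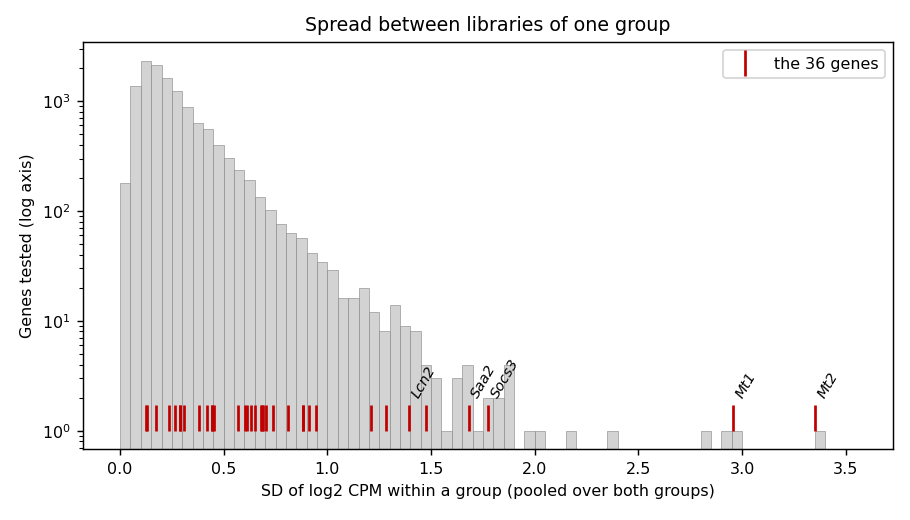
Histogram of the SD of log2 CPM within a group, pooled over both groups (x axis), with the number of the 12706 tested genes on a log axis (y axis); red ticks mark the 36 genes. Of the 36, 33 lie above the median gene, and Mt1 and Mt2 lie at the far right.

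Of the negative acute phase genes of the set, Alb and Ahsg did not mirror the positive ones. Alb, from which serum albumin is made, was at 92074, 66248 and 67533 CPM in wild-type and at 80579, 95207 and 72614 CPM in heterozygous livers (0.14 ± 0.18, adjusted p = 0.835). Its 2 highest libraries, heterozygous replicate 2 and wild-type replicate 1, were those with the highest metallothionein levels. Ahsg, which encodes the calcification inhibitor fetuin-A, was at 11064, 7061 and 7355 CPM against 7149, 9499 and 6929 CPM, likewise highest in wild-type replicate 1 and heterozygous replicate 2 (-0.11 ± 0.21, adjusted p = 0.902). Ttr, from which the thyroid hormone carrier transthyretin is made, was at 6502, 5744 and 7155 CPM against 7819, 6691 and 8667 CPM (0.26 ± 0.15, adjusted p = 0.532). It had the reverse arrangement within the heterozygous group, where replicate 2 was lowest, and wild-type replicate 1 was the middle library of its group.

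The counts were repeated without the libraries that stood apart. Without wild-type replicate 1 the median log2 fold change of the 36 genes was -0.10 and 24 were negative. Without heterozygous replicate 2 the median was -1.01, 34 were negative, and 27 had every heterozygous library below every wild-type one, beside 17.8% of all tested genes in that smaller set. With both left out, leaving 2 libraries per group, the median was -0.64 and 25 genes were arranged so (22.9% of all). Lcn2 (-1.72, adjusted p = 0.0125) and Saa2 (-1.79, adjusted p = 0.0488) were then 2 of the 4 genes past the threshold among all tested (0.0313%). These libraries were singled out by their levels of these same genes, so the values describe how much rests on them and are no test of the genotype.

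Cebpb itself was at 506, 308 and 340.4 CPM in wild-type and at 204, 498 and 269 CPM in heterozygous livers (-0.25 ± 0.37, adjusted p = 0.864). It followed the commonest library order of the set. Kupffer cells are a minority of liver cells, so this level in whole tissue does not check the deletion. Clec4f was at 48.6, 38.5 and 5.42 CPM against 4.31, 4.97 and 3.90 CPM (-2.81 ± 0.85, adjusted p = 0.260). All 8 tested Kupffer cell markers had negative fold changes, and 1 passed the threshold (C1qa, -1.06, adjusted p = 0.0489). For 7 of the 8 every heterozygous library was below every wild-type one, beside 11.3% of all tested genes. The sum of the 8 lay between 397 and 763 CPM in wild-type and between 203 and 235 CPM in heterozygous livers. For 7 of the 8 the highest library was wild-type replicate 2, unlike the acute phase genes, and for 7 of the 8 the highest heterozygous library was replicate 2, like them. The part of these cells in the lean toward negative fold changes was not tested. Hepatocyte markers, by which the tissue label was checked, summed to 12153 to 14722 CPM in wild-type and to 12178 to 14127 CPM in heterozygous livers, with 0 of 8 past the threshold.

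Further genes of the pathway were taken from lists by role. Of 26 other positive acute phase genes, 24 were tested and 1 was called: Il1rn, the natural antagonist of IL-1, fell 2.24-fold, from 8.84, 9.14 and 6.51 CPM to 3.61, 3.88 and 3.44 CPM (-1.16 ± 0.20, adjusted p = 0.0494). Over its alternatives the adjusted p of Il1rn ran from 0.000423 to 0.218, and it passed the threshold in none of the 6 fits that left out a library. C4b, a complement component, had the next smallest p (-0.54, adjusted p = 0.263). The median of the list was -0.17, and 12 of its 24 genes were highest in wild-type replicate 1. Of 13 other negative acute phase genes 0 passed (median 0.05), with Igfals, a carrier of insulin-like growth factors, closest at 0.53 (adjusted p = 0.112). Their library order was mixed. Of the 13, 6 were highest in wild-type replicate 1, and 4 had wild-type replicate 1 and heterozygous replicate 2 each highest of its own group. Cyp3a11, Cyp2c29, Pon1 and Rbp4 were instead lowest of their own groups in these libraries.

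Upstream of the hepatocyte, 5 of 11 cytokines of the IL-6 family and its inducers were tested and 0 passed. Tnf, at 3.66, 3.43 and 4.54 CPM in wild-type and 2.91, 1.45 and 1.26 CPM in heterozygous livers, had the smallest p (-1.04, adjusted p = 0.203). Of 10 tested cytokine receptors 0 passed (median -0.02), with Il10rb at -0.50 and Il1rap at 0.25. Of 17 JAK-STAT kinases, factors and brakes 0 passed (median -0.12). Ptpn6 (-0.65), Socs1 (-1.04) and Ptpn1 (-0.71), all brakes on cytokine signalling, had adjusted p-values of 0.135, 0.234 and 0.236.

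Of 12 acute phase transcription factors 0 passed (median -0.25). Groups did not overlap for 3 of the 12, all lower in heterozygous livers, where 11.3% of all tested genes were so arranged. These were Nfkb2 (-0.66, adjusted p = 0.0992) and Relb (-0.75, adjusted p = 0.114), subunits of the alternative NF-κB pathway, and Nfkb1 (-0.28, adjusted p = 0.302). Of 12 genes listed as early STAT3 targets 0 passed (median -0.14), with Tnfaip3, an NF-κB inhibitor, nearest at -0.90 (adjusted p = 0.109). Tnfaip3 was highest in wild-type replicate 2, unlike Socs3, and is not read here as a measure of STAT3 activity. DESeq2 placed Igfals, Ptpn6, Nfkb2, Relb and Tnfaip3 past the threshold, with adjusted p-values of 0.0259, 0.0457, 0.0312, 0.0445 and 0.0170.

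Of 11 zinc and metal genes outside the set 0 passed (median 0.13). None of the 11 was highest in wild-type replicate 1, 6 were highest of all libraries in heterozygous replicate 2, and 4 had wild-type replicate 1 and heterozygous replicate 2 each highest of its own group. Slc39a8, a relative of ZIP14, was nearest to the threshold (0.46, adjusted p = 0.169). Slc30a1, the zinc exporter that metals induce through the same element as Mt1, was named after its values were seen. It was at 19.3, 29.2 and 19.3 CPM in wild-type and at 30.7, 32.1 and 18.8 CPM in heterozygous livers, highest in heterozygous replicate 2 and near its lowest level in wild-type replicate 1. Of 10 glucocorticoid-responsive genes 0 passed (median 0.0083). Of the 10, 4 were highest in wild-type replicate 1, beside 20.8% of all tested genes. Wild-type replicate 1 and heterozygous replicate 2 were each highest of their own group for 6, beside 17.6% of all. Nr3c1 and Cdkn1c were instead lowest of all libraries in wild-type replicate 1. Fkbp5, a cochaperone of the glucocorticoid receptor, was at 208, 78.9 and 59.3 CPM against 17.4, 73.7 and 31.9 CPM (-1.49, adjusted p = 0.511), with wild-type replicate 1 highest and heterozygous replicate 2 the highest of its group.

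**Figure D5:**
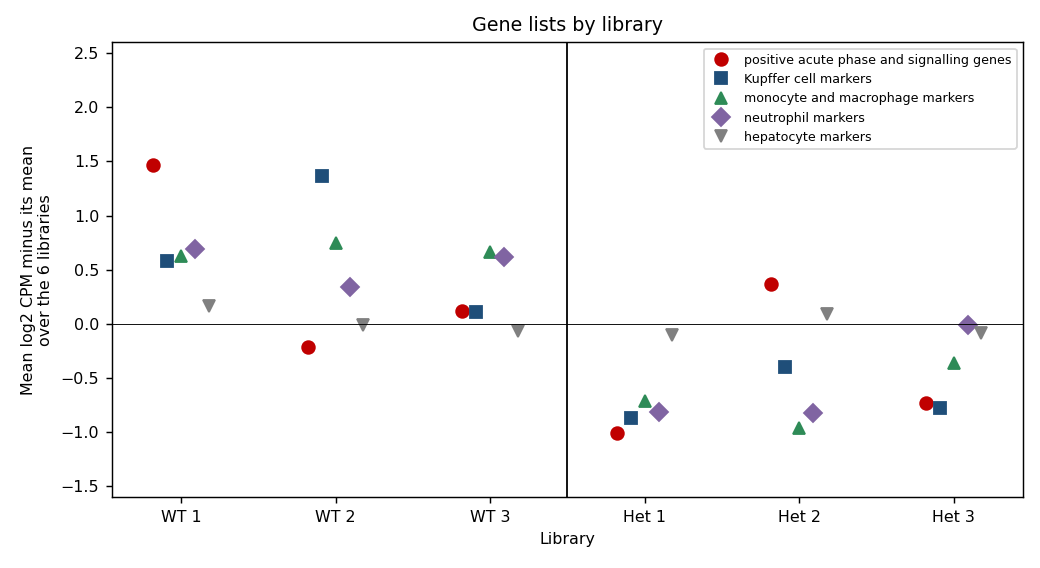
Mean log2 CPM of the 33 positive acute phase and signalling genes and of 4 marker lists (Kupffer cell, monocyte and macrophage, neutrophil, hepatocyte) in each library, each centred on its own mean over the 6 libraries, in log2 units. Before centring the 33 genes run from 6.66 in heterozygous replicate 1 to 9.13 in wild-type replicate 1; the Kupffer, monocyte and neutrophil points lie higher in each wild-type library than in any heterozygous one.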

How the data were processed

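The analysis used 6 libraries, 3 per genotype, with groups and replicate numbers from the sample titles. The authors deposited 1 table of unnormalized whole-number counts by gene symbol. Per the labels' protocols, RNA was extracted in TRIzol and 500 ng went into TruSeq Stranded mRNA libraries. The submitters' processing notes name HTSeq 0.9.1, HISAT2 2.2.1.0, Trimmomatic 0.36 and build GRCm39; the annotation and the counter's strand setting were not given in the sources used here. Genotype labels of replicates 2 and 3 count the driver's name upward, and the series design, which names Clec4f, was followed. The table held 17119 symbols, 442 of them without a count.

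In R 4.3.3, counts were filtered (filterByExpr by group), TMM-scaled and tested with edgeR 4.0.16 (glmQLFit, robust, and glmQLFTest), with Benjamini-Hochberg adjustment over 12706 genes. SEs are the absolute log2 fold change over the square root of F. CPM are TMM-scaled, and log2 CPM used a prior count of 2. Levels in CPM are not per length, so genes are not ranked by them. Alternatives were other scalings and filters, DESeq2 1.42.0, limma-voom (limma 3.58.1), a non-robust fit, a replicate block and libraries left out. Tested on simulated data for this comparison (12706 genes), the test recovered 53.6% of 97 genes changed 2-fold and 86.5% of 96 changed 4-fold, with 13 false among 148 calls. The changed genes were drawn at random from all tested genes. Recovery was not measured for genes with the wider spread of the 36 genes (median SD 0.66 beside 0.21).

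Genes given by library were those past the threshold, those whose groups did not overlap and, in each role, the most abundant and the most variable; other lists gave up to 4 genes with the smallest p, and Cebpb and Clec4f were always given. Values by library of Saa1, Il6ra, Il6st, Il1r1, Slc39a14 and Ttr, and those of Slc30a1, Clcf1, Ctf1 and Il6, were added after they had been seen. The genes and lists were chosen with earlier results of these data known. No 2 libraries agreed within sampling noise (chi-square per degree of freedom 22.1 to 107.8).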

Additional observations from a re-analysis of the deposited data

How the results depend on the processing

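For the 36 genes the count past the threshold stayed at 0 under edgeR's RLE and upper-quartile scaling, scaling without the 36 genes, both other filters, limma-voom, the non-robust fit, the replicate block and each single library left out. It was 1 with DESeq2, and 2 when wild-type replicate 1 and heterozygous replicate 2 were both left out. DESeq2 gave no adjusted p for Saa2, Lcn2, Mt1 and Mt2. The median log2 fold change ran from -1.01 (without heterozygous replicate 2) to -0.10 (without wild-type replicate 1) when 1 library was left out. Genes of the 36 whose groups did not overlap, in either direction, then numbered from 4 to 28 (without heterozygous replicate 2), and 27 without both. The arrangement also became commoner over all tested genes. Every heterozygous library was below every wild-type one for 11.3% of them with all 6 libraries. That share was 17.8% without heterozygous replicate 2 and 22.9% without both. Shares for the opposite arrangement are not given for these fits.

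Over all tested genes, calls lower in heterozygous livers numbered 36 with upper-quartile scaling, 190 without a filter, 47 at 1 CPM or more in 3 libraries, 452 with DESeq2, 20 with the non-robust fit and 4 without both libraries. Calls higher numbered 1, 21, 1, 82, 0 and 0 in the same settings. limma-voom called 0 and 0, with 1686 genes at an unadjusted p under 0.05. Leaving out 1 library gave 0 to 107 lower and 0 to 15 higher calls; both counts were 0 without heterozygous replicate 1 or 2, with 1104 and 1601 genes at an unadjusted p under 0.05. The cause was not tested.

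Same-numbered libraries had deviations correlating at -0.21, -0.31 and 0.19. These values show no pairing by number, and with so few libraries they cannot exclude one. With the replicate number as a block, 0 and 0 genes were called (1427 at an unadjusted p under 0.05), the median of the 36 genes was -0.61, and Itih2 (0.00065) and Socs3 (-0.55) turned sign.

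Other sign changes were of Itih2 (0.0069) and Il6st (0.0025) without a filter, of Socs3 (-0.54) with limma-voom, and of Itih2 (0.0759), Serpina3k (0.10) and Socs3 (-1.17) without both libraries. With 1 library left out, ranges crossing 0 were -0.12 to 0.26 for Itih1, -0.15 to 0.22 for Itih2, -0.17 to 0.19 for Serpina3k, -0.35 to 0.21 for Il6st, -1.83 to 1.14 for Socs3, -1.002 to 0.0615 for Osmr, -5.55 to 1.18 for Mt1, -6.49 to 1.31 for Mt2, -0.99 to 0.11 for Slc39a14, -0.27 to 0.14 for Ahsg and -0.70 to 0.0159 for Cebpb. Without wild-type replicate 1, Serpina3n went from -1.42 to -0.03, Steap4 from -1.25 to -0.08 and Il1r1 from -1.31 to -0.28. The positive ends for Osmr, Mt1, Mt2, Slc39a14 and Ahsg came without wild-type replicate 1.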

Other observations

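Genes outside the set that stood out in the same 2 libraries were collected after the values had been seen, and they are described without a test. Among 9591 genes with a mean of at least 5 CPM, 57 were at least 2-fold higher both in wild-type replicate 1 than in the other wild-type libraries and in heterozygous replicate 2 than in the other heterozygous ones, with 0.5 CPM added. Of these 57, 13 belonged to the acute phase set. Another 34 genes were at least 2-fold lower in both libraries, none of them in the set, and 4 went opposite ways.

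The leading gene of the higher group was Gadd45g, a stress and growth arrest gene, at 179.5, 14.5 and 21.9 CPM in wild-type and 19.9, 178 and 19.2 CPM in heterozygous livers. Igfbp1, a hepatocyte binding protein of insulin-like growth factors that fasting and stress induce, was at 870.5, 70.0 and 226 CPM against 183, 524 and 119 CPM. Asns, which makes asparagine and responds to amino acid shortage, was at 14.9, 5.22 and 1.70 CPM against 0.932, 7.75 and 0.918 CPM. For all 3 genes these were the 2 highest of the 6 libraries, and none passed the threshold between genotypes (adjusted p = 0.999, 0.927 and 0.780).

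Lower in the same libraries was Cfd, which encodes the complement protease adipsin, at 80.6, 418 and 134 CPM in wild-type and 235, 24.2 and 307 CPM in heterozygous livers. Cd36, a fatty acid transporter, was at 29.9, 84.4 and 73.3 CPM against 102, 32.5 and 90.9 CPM. Cyp2a5, a hepatocyte cytochrome P450, was at 175, 840.5 and 338 CPM against 363, 199 and 529.9 CPM. Arrdc3, an arrestin-like gene, was at 41.4, 169.96 and 116 CPM against 51.7, 29.6 and 144 CPM. These 4 genes were picked for levels at least 2-fold lower in wild-type replicate 1 and heterozygous replicate 2 than elsewhere in each group. Both libraries were singled out by the acute phase genes, so the contrast with those genes follows from the choice.

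A chemokine and a fibrinogen chain of the other positive acute phase genes, named after their values were seen, were also highest of their groups in these libraries. Cxcl1, which attracts neutrophils, was at 107, 9.41 and 34.4 CPM against 3.79, 199.7 and 27.5 CPM, and Fga was at 11680.4, 4135 and 6807 CPM against 3899, 6463 and 4033 CPM. With these included, 13 of the 24 tested genes of that list had this arrangement. Vnn1, Hamp2 and Mbl2 of the same list were instead lowest of their groups in these libraries.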
